A study of Homo sapiens with 5 samples.

Results

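Receptor tyrosine kinases are cell surface receptors that phosphorylate tyrosines once a ligand has paired them, and their signal runs through adaptor proteins to the RAS-ERK and PI3K-AKT pathways. Ligands of the epidermal growth factor (EGF) type are made as membrane proteins and released by proteases such as ADAM17, so that a tumour cell can stimulate itself or its neighbours. Ephrins differ from these ligands in staying on the membrane, where they bind Eph receptors of the adjoining cell and guide adhesion and movement. This account follows 45 such genes, chosen by symbol from the 28442 gene rows of the deposited table: 28 receptors, 5 ephrins and 12 soluble or shed growth factors. Each of the 45 symbols matched exactly 1 row.

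The transcripts were measured in TOV21G, an established human cell line from an ovarian clear cell carcinoma, by sequencing of total RNA. The series addresses HDAC6, a mostly cytoplasmic deacetylase, in ovarian cancer cells that carry ARID1A mutations. ARID1A belongs to the SWI/SNF complex, which moves nucleosomes. HDAC6 was repressed by a short hairpin RNA delivered with a virus and puromycin selection (shHDAC6), or by a drug that inhibits it, ACY1215 or CAY10603. The reference libraries were a control hairpin (shControl) for the knockdown and a vehicle for the drugs, which is headed DMSO in the table. Each treatment has 1 library of the same cell line, so no pair of libraries has a replicate check. The sources used here do not give the doses, the treatment times or which hairpin the shHDAC6 library carried.

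Total counts lay between 43498805 and 57442767 per library. Genes with a count numbered 18719 in shHDAC6 and 18571 in shControl, and 21031 with ACY1215 and 21265 with CAY10603, against 22189 in vehicle, the shallowest library, so the hairpin libraries stood apart. The part of this split in the low counts given below was not tested. HDAC6 itself stood at 29.2 CPM (counts scaled to library size) in the library labelled shHDAC6, against 48.0 CPM in shControl, and at 33.2 CPM with ACY1215 and 48.2 CPM with CAY10603, against 51.1 CPM in vehicle. Of 8 markers fixed for the clear cell label, 5 had a mean of at least 1 CPM, among them PAX8, while NAPSA, KRT7 and MUC1 stayed under 1 CPM. Leukocyte and endothelial marker lists summed to at most 1.48 and 0.476 CPM in any library. The fibroblast list of 5 genes summed to 37.4 CPM with ACY1215 and 36.7 CPM with CAY10603, against 26.5 CPM in vehicle, and to 24.8 CPM in shHDAC6 against 27.0 CPM in shControl. In that list COL1A1 and COL1A2 reached 1 CPM, and DCN, LUM and PDGFRB did not. Its part in the results below was not tested.

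TOV21G cells carried a broad set of these transcripts, led by receptors of the fibroblast growth factor (FGF) family. Levels of different genes were compared in the authors' FPKM, which divide by transcript length. By the mean over the 5 libraries, 2 of the 45 genes were at 100 FPKM or more, 15 between 10 and 100, 16 between 1 and 10, and 12 under 1.

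**Figure D1:**
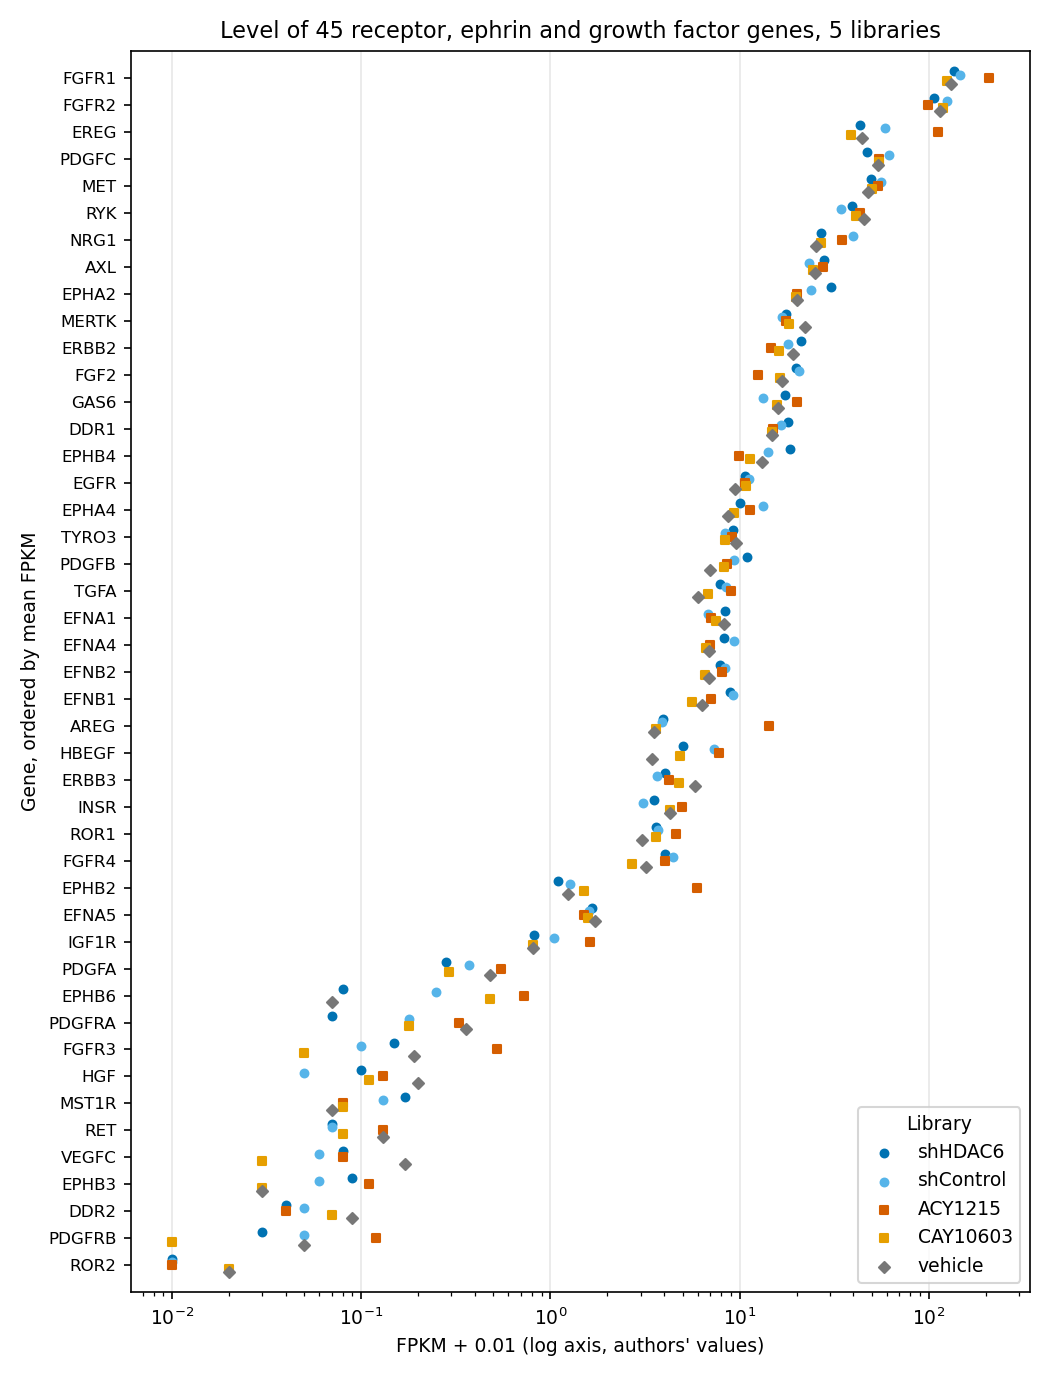
FPKM of the 45 genes in each of the 5 libraries, on a log axis with the offset named on it; rows run from the highest to the lowest mean, and each point is 1 library. FGFR1 and FGFR2 lead in every library except that EREG passes FGFR2 with ACY1215, and the ACY1215 points of AREG and EPHB2 stand apart from the other 4.

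FGFR1, a receptor for FGF2 among other ligands, had the highest mean, with 135 FPKM in shHDAC6, 147 in shControl, 208 with ACY1215, 124 with CAY10603 and 131 in vehicle. FGFR2, its close relative, had 107 FPKM in shHDAC6, 125 in shControl, 98.5 with ACY1215, 119 with CAY10603 and 115 in vehicle. Epiregulin, EREG, a ligand of EGFR and ERBB4, ranked next by its mean, with 43.2 FPKM in shHDAC6, 58.7 in shControl, 113 with ACY1215, 39.0 with CAY10603 and 44.3 in vehicle. That rank rests on the ACY1215 library, since PDGFC was above EREG in each of the other 4 libraries and MET was above it in 3 of them. By the mean the order then ran PDGFC, MET, RYK, NRG1, AXL and EPHA2. The ranges of PDGFC and MET over the libraries overlapped, and so did those of MERTK, ERBB2, FGF2, GAS6 and DDR1, which held ranks 10 to 14.

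At the low end, 12 genes had a mean under 1 FPKM and under 5 CPM, the floor used for fold changes, and were left out of the counts that follow. They were the receptors MST1R, FGFR3, PDGFRA, PDGFRB, DDR2, EPHB3, EPHB6, ROR2 and RET and the ligands PDGFA, VEGFC and HGF. HGF, the ligand of MET, had 6 counts in shHDAC6 and 4 in shControl, and 10 with ACY1215, 10 with CAY10603 and 19 in vehicle, in a line where MET was at 47.8 to 56.1 FPKM. PDGFC is a ligand of the receptor PDGFRA, which had 17 counts in shHDAC6 and 30 in shControl, and 70 with ACY1215, 34 with CAY10603 and 49 in vehicle. FGFR3 had 113 counts with ACY1215 and 8 with CAY10603, against 25 in vehicle, and 29 in shHDAC6 against 21 in shControl. EPHB6 had 50 counts with ACY1215 and 22 with CAY10603, against 8 in vehicle, and 11 in shHDAC6 against 20 in shControl. PDGFA reached 76 counts at most, PDGFRB 32, MST1R 32, RET 23, EPHB3 23, VEGFC 13, DDR2 10 and ROR2 2. At such counts a difference rests on few reads, and no fold is given.

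Repression of HDAC6 over its 3 forms was set against the controls in a fit across all genes, with experiment type (hairpin or drug) as a covariate. No receptor, ephrin or growth factor gene passed. Of 13449 genes tested, 0 (0%) passed edgeR's quasi-likelihood test at a Benjamini-Hochberg adjusted p of 0.05, and 0 passed DESeq2 or limma-voom. An unadjusted p under 0.05 was met by 100 genes (0.744%) with edgeR, 112 with DESeq2 and 122 with limma-voom. Of the 45 genes, 35 were expressed enough to be tested, and 0 of them reached an unadjusted p under 0.05 with any of these tools. The largest estimate was that of EPHB2, with a log2 fold of 0.84 and a standard error of 0.72 (edgeR adjusted p = 1.00). Without vehicle the EPHB2 estimate was -0.22 and without shControl it was 1.70. The libraries are not known to come from separate cultures, so such p-values measure the spread between these libraries. The fit counts differences between the 3 forms of repression as error, so a gene that differs in a single form gains a large standard error. With 2 residual degrees of freedom it could call little, and the 0 calls do not show that these genes were unchanged.

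The single pairs below compare 1 library with another and carry no test. Their log2 folds are of CPM scaled by the trimmed mean of M values (TMM), with a prior count of 2, for the 33 genes above that floor. The intervals given with them are 95% exact binomial intervals and cover counting error alone.

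**Figure D2:**
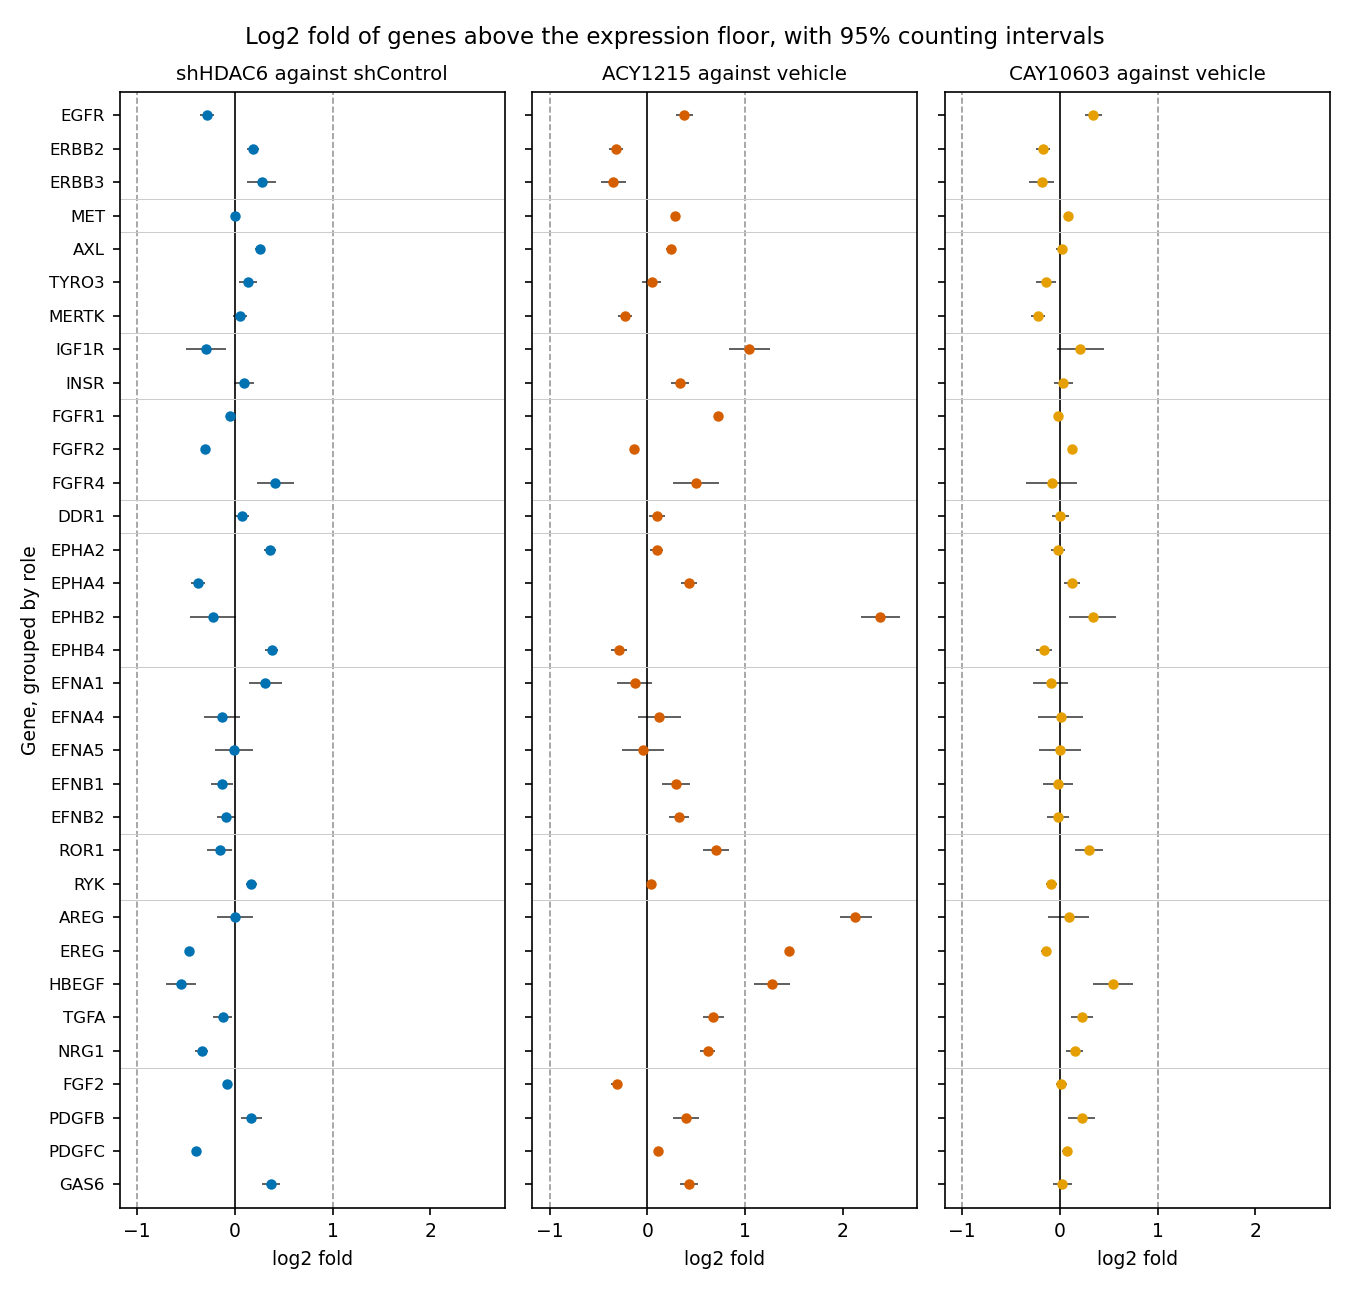
Log2 folds of the 33 genes above the floor of 5 CPM, grouped by role, for shHDAC6 against shControl, ACY1215 against vehicle and CAY10603 against vehicle; bars are 95% counting intervals and dashed lines mark 2-fold. Points past 2-fold occur in the ACY1215 panel for EPHB2, AREG, EREG, HBEGF and IGF1R, and in neither of the other panels.

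The ACY1215 library held the widest differences. Against vehicle, 5 of the 33 genes were at least 2-fold higher and 0 at least 2-fold lower, where 1.67% and 3.04% of all 10741 genes above the floor were. At 1.5-fold, a threshold added after the values were seen, 9 were higher, with a background of 5.86% of all genes, and 0 were lower, with a background of 7.76%. Their median log2 fold was 0.29, and that of all genes was -0.00. With CAY10603, 0 of 33 were at least 2-fold from vehicle (background 0.27%) and the median was 0.01. In shHDAC6, 0 of 33 were at least 2-fold from shControl (background 0.689%) and the median was -0.00. With shControl in place of vehicle, 3 of the 5 genes stayed at least 2-fold higher with ACY1215, with a background of 1.82%. They were EPHB2, AREG and EREG. The controls themselves lay apart for 1 of the 33 genes, HBEGF, at least 2-fold higher in shControl than in vehicle (background 0.512%). Many of the smaller signs depended on the control library. With the other control library the sign turned for 18 of 33 genes in shHDAC6, 11 with ACY1215 and 21 with CAY10603. The share of all genes whose sign turned was not counted, so these counts are not read as particular to the 33 genes.

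Genes of mitosis, read from a list of 12 G2 and M phase genes, differed beside these values. All 12 were at least 2-fold lower with ACY1215 than in vehicle (median log2 fold -1.36), with KIF20A at -1.81, CCNA2 at -1.62, AURKB at -1.58 and CCNB2 at -1.54. All 12 were higher in shHDAC6 than in shControl (median 0.54), and with CAY10603 the median was -0.10. The controls lay as far apart as the shHDAC6 pair, though less than ACY1215 and vehicle, with all 12 lower in shControl than in vehicle (median -0.54). Against vehicle 5 of the 12 were higher in shHDAC6 and 7 lower (median -0.07), and against shControl all 12 were lower with ACY1215 (median -0.78) and all 12 higher with CAY10603 (median 0.47). Their part in the receptor and ligand values was not tested. In such bulk RNA, fewer cells of a kind and less RNA per cell cannot be told apart.

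The EGF-like ligands were higher with ACY1215 than in vehicle as a group, and by less against shControl. All 5 ligands above the floor were at least 1.5-fold higher than in vehicle, and their median log2 fold was 1.27. With CAY10603 4 of 5 were above vehicle, with a median of 0.15, and in shHDAC6 4 of 5 were below shControl, with a median of -0.34. In shControl all 5 were above vehicle, with a median of 0.51. Against shControl the ACY1215 median was 0.17, with 4 of 5 higher, and all 5 were lower with CAY10603 (median -0.53). Against vehicle 4 of 5 were higher in shHDAC6 (median 0.34).

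Amphiregulin, AREG, a ligand of EGFR, stood at 8.90 CPM in shHDAC6 and 8.87 in shControl, and at 34.5 CPM with ACY1215 and 8.36 with CAY10603, against 7.85 in vehicle. The ACY1215 library lay far above the other 4. The log2 fold was 2.13 for ACY1215 (1.97 to 2.30), 0.09 for CAY10603 (-0.12 to 0.30) and 0.00 for shHDAC6 (-0.18 to 0.19). Against shControl the ACY1215 library was at 1.95. EREG stood at 184 CPM in shHDAC6 and 256 in shControl, and at 516 CPM with ACY1215 and 171 with CAY10603, against 189 in vehicle. ACY1215 was the highest library and shControl the next. The log2 fold was 1.45 for ACY1215 (1.42 to 1.49), -0.15 for CAY10603 (-0.19 to -0.10) and -0.47 for shHDAC6 (-0.51 to -0.44), and 1.01 for ACY1215 against shControl. EREG made up 63.1% of the summed FPKM of the 5 ligands with ACY1215 and 48% with CAY10603, against 53.6% in vehicle, and 49.8% in shHDAC6 against 49.8% in shControl.

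HBEGF, the heparin-binding ligand of EGFR and ERBB4, stood at 10.8 CPM in shHDAC6 and 15.8 in shControl, and at 17.7 CPM with ACY1215 and 10.6 with CAY10603, against 7.29 in vehicle. Here vehicle was the lowest library and shControl came close to ACY1215. The log2 fold was 1.27 for ACY1215 (1.09 to 1.46), 0.54 for CAY10603 (0.34 to 0.75) and -0.55 for shHDAC6 (-0.70 to -0.40). Against shControl the ACY1215 value shrank to 0.16, the CAY10603 value turned to -0.57, and the shHDAC6 value against vehicle turned to 0.56. TGFA, transforming growth factor alpha, another EGFR ligand, had log2 folds of 0.68 for ACY1215 and 0.23 for CAY10603, and NRG1, neuregulin 1, the ligand of ERBB3 and ERBB4, had 0.62 and 0.15. In shHDAC6 they were at -0.12 and -0.34 against shControl. Against shControl the ACY1215 values were 0.17 for TGFA and -0.07 for NRG1.

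**Figure D3:**
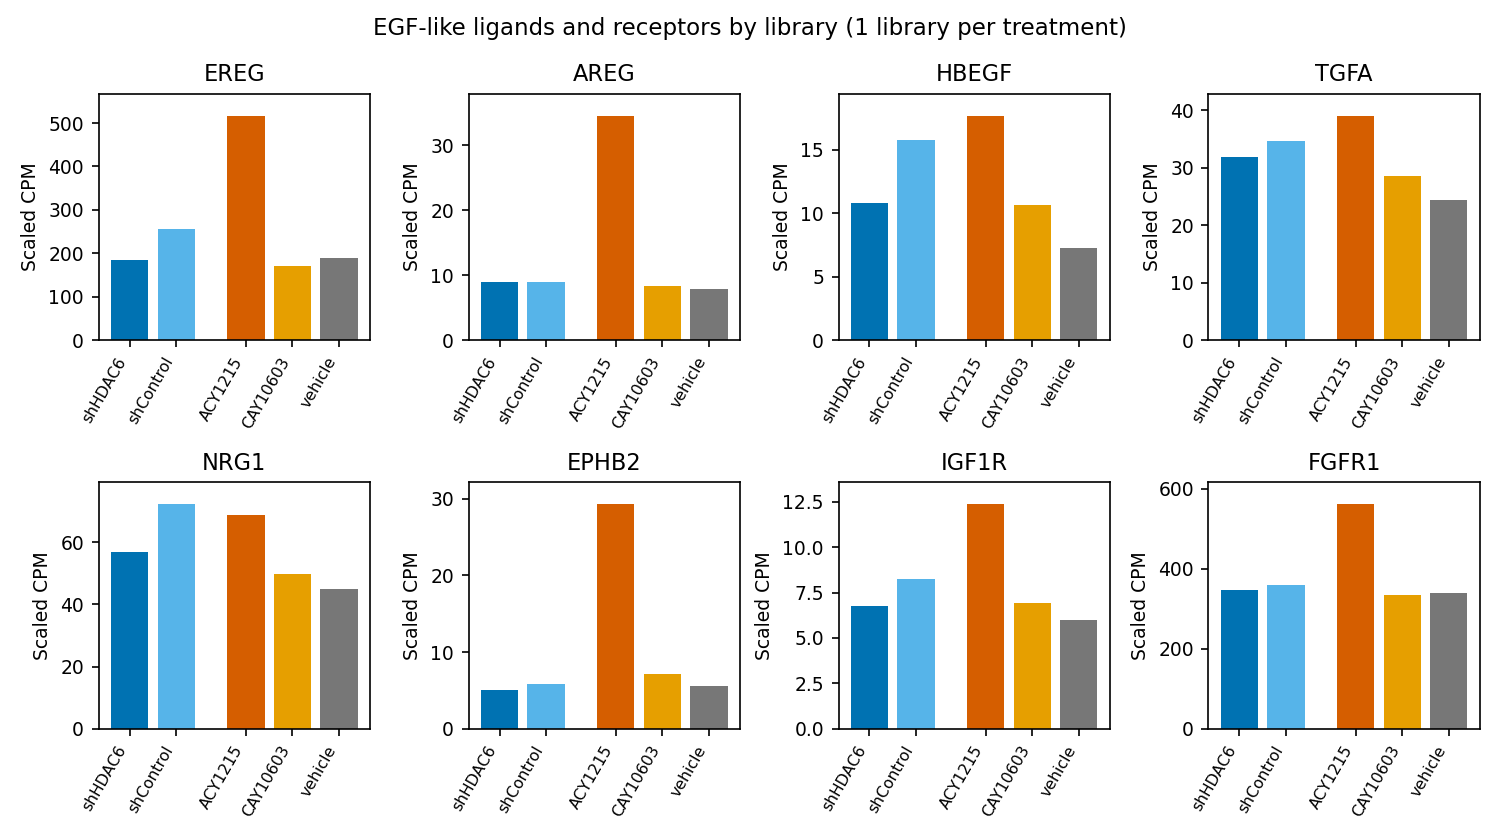
TMM-scaled CPM of the 5 EGF-like ligands, EPHB2, IGF1R and FGFR1; each bar is 1 library, and the gap parts the hairpin pair from the drug libraries. AREG, EREG, EPHB2 and FGFR1 are highest with ACY1215 by a wide margin, while HBEGF and NRG1 reach similar heights in ACY1215 and shControl.

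The receptors of these ligands differed less. ERBB2 and ERBB3 had signs opposite to EGFR in the 3 pairs, which for ERBB3 depended on the control library. EGFR stood at 46.0 CPM in shHDAC6 and 56.1 in shControl, and at 56.2 CPM with ACY1215 and 54.8 with CAY10603, against 43.2 in vehicle. Both drug libraries and shControl were alike, and vehicle was the lowest. Its log2 fold was 0.38 for ACY1215, 0.34 for CAY10603 and -0.28 for shHDAC6, and 0.00 for ACY1215 and -0.03 for CAY10603 against shControl. ERBB2, a receptor with no known ligand of its own that pairs with the other members, had -0.32, -0.17 and 0.19 in the same order. ERBB3, which binds neuregulins, had -0.35, -0.18 and 0.27. ERBB4, which is not among the 45 genes, stood at 97.2 CPM in shHDAC6 and 99.1 in shControl. It was at 113 CPM with ACY1215 and 126 with CAY10603, against 105 in vehicle. Its log2 fold was 0.10 for ACY1215, 0.26 for CAY10603 and -0.03 for shHDAC6. For ERBB3 the controls differed more than any of the 3 pairs, with 12.2 CPM in shControl against 22.8 CPM in vehicle. With the other control library the ERBB3 signs turned, to 0.55 for ACY1215, 0.72 for CAY10603 and -0.63 for shHDAC6. ERBB2 kept its signs there, at -0.30, -0.15 and 0.17 in the same order. On the authors' FPKM the EGFR values were smaller, at 0.16 for ACY1215, 0.19 for CAY10603 and -0.07 for shHDAC6.

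EPHB2, an Eph receptor for B-type ephrins, had the largest fold of the 33 genes in any of the 3 pairs. It stood at 5.03 CPM in shHDAC6 and 5.87 in shControl, and at 29.3 CPM with ACY1215 and 7.08 with CAY10603, against 5.61 in vehicle. ACY1215 was far above the other libraries, which lay between 5.03 and 7.08 CPM. The log2 fold was 2.38 for ACY1215 (2.19 to 2.58), 0.33 for CAY10603 (0.10 to 0.58) and -0.22 for shHDAC6 (-0.46 to 0.01), and 2.31 for ACY1215 against shControl. The other 3 Eph receptors above the floor did not share this size of difference. EPHA4 had 0.43 with ACY1215, 0.12 with CAY10603 and -0.38 in shHDAC6, and EPHA2 had 0.09, -0.02 and 0.36. EPHB4 had -0.29, -0.16 and 0.38, so it ran opposite to EPHB2 in all 3 pairs. Per length, EPHB4 outweighed EPHB2 in each library, with 9.97 against 5.98 FPKM in ACY1215 and 13.1 against 1.23 FPKM in vehicle.

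The ephrins, the ligands of these receptors, stayed near their controls. Of the 5, 3 were higher with ACY1215 than in vehicle, with a median log2 fold of 0.12. The largest was EFNB2, a ligand of EPHB2 and EPHB4, at 35.4 CPM with ACY1215 and 27.9 with CAY10603, against 28.2 in vehicle, and at 32.8 in shHDAC6 against 35.0 in shControl. ACY1215 and shControl were level for it. Its log2 fold was 0.33 for ACY1215, -0.02 for CAY10603 and -0.09 for shHDAC6. EFNB1 differed more between the controls (0.63, shControl over vehicle) than in any of the 3 pairs, where it had 0.29 for ACY1215, -0.02 for CAY10603 and -0.13 for shHDAC6. EFNA1 had -0.13 with ACY1215, -0.10 with CAY10603 and 0.31 in shHDAC6, and EFNA4 had 0.12, 0.01 and -0.13. EFNA5, like them an A-type ephrin, was the flattest, within 0.05 of 0 in the 3 pairs.

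The FGF receptors parted in the ACY1215 library. FGFR1 stood at 347 CPM in shHDAC6 and 358 in shControl, and at 561 CPM with ACY1215 and 335 with CAY10603, against 339 in vehicle. ACY1215 stood alone, and the other 4 lay between 335 and 358 CPM. The log2 fold was 0.72 for ACY1215 (0.70 to 0.75), -0.02 for CAY10603 (-0.05 to 0.02) and -0.04 for shHDAC6 (-0.07 to -0.02), and 0.65 for ACY1215 against shControl. FGFR2 stood at 226 CPM in shHDAC6 and 279 in shControl, and at 223 CPM with ACY1215 and 268 with CAY10603, against 245 in vehicle. Its log2 fold was -0.13 for ACY1215, 0.13 for CAY10603 and -0.31 for shHDAC6, so ACY1215 and shHDAC6 were both below their controls. FGFR1 thus took 66.9% of the summed FPKM of the 4 FGF receptors with ACY1215 and 50.5% with CAY10603, against 52.7% in vehicle. FGF2, basic fibroblast growth factor, was lower with ACY1215, at 86.5 CPM, and 109 CPM with CAY10603, against 108 CPM in vehicle. FGFR4 had 0.49 with ACY1215 and 0.42 in shHDAC6. Its FPKM in shHDAC6 went the other way, at 4.02 against 4.45 in shControl.

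The insulin family receptors were both higher with ACY1215. IGF1R, the receptor of insulin-like growth factors, stood at 6.73 CPM in shHDAC6 and 8.27 in shControl, and at 12.4 CPM with ACY1215 and 6.94 with CAY10603, against 5.99 in vehicle. ACY1215 was the highest library. The log2 fold was 1.04 for ACY1215 (0.84 to 1.26), with an interval that reached below 2-fold, 0.21 for CAY10603 and -0.29 for shHDAC6. On the authors' FPKM the ACY1215 value was 0.93, and against shControl it was 0.58. With the other control the CAY10603 value was -0.25 and the shHDAC6 value 0.17. INSR, the insulin receptor, had 0.34, 0.03 and 0.09 for ACY1215, CAY10603 and shHDAC6, and 0.77 for ACY1215 against shControl.

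Among the remaining receptors, those above the floor were all within 1.5-fold of control in the 3 pairs except ROR1 with ACY1215. MET, the receptor of HGF, stood at 173 CPM in shHDAC6 and 173 in shControl, and at 187 CPM with ACY1215 and 163 with CAY10603, against 154 in vehicle. ACY1215 was the highest library and vehicle the lowest. For MET the log2 fold was 0.29 for ACY1215, 0.09 for CAY10603 and 0.00 for shHDAC6. On the authors' FPKM the MET values were 0.17, 0.07 and -0.18 in the same order. The TAM receptors, which bind GAS6 and protein S and take part in the clearance of dying cells, were led by AXL. AXL stood at 126 CPM in shHDAC6 and 105 in shControl, and at 131 CPM with ACY1215 and 112 with CAY10603, against 110 in vehicle. For AXL the log2 fold was 0.26 for shHDAC6 (0.21 to 0.31), 0.24 for ACY1215 and 0.02 for CAY10603. Their ligand GAS6 stood at 40.0 CPM in shHDAC6 and 30.8 in shControl, and at 48.6 CPM with ACY1215 and 36.7 with CAY10603, against 36.2 in vehicle. Its log2 fold was 0.37 for shHDAC6 and 0.43 for ACY1215, but 0.02 for CAY10603. MERTK had -0.23 with either drug and 0.05 in shHDAC6, and TYRO3 had 0.04 with ACY1215, -0.14 with CAY10603 and 0.14 in shHDAC6. DDR1, a receptor for collagen, stood at 58.0 CPM in shHDAC6 and 55.3 in shControl, and at 51.8 CPM with ACY1215 and 48.6 with CAY10603, against 48.5 in vehicle. Both hairpin libraries were above the drug libraries and vehicle. Its log2 folds were 0.07 for shHDAC6, 0.10 for ACY1215 and 0.00 for CAY10603. ROR1, a receptor for WNT5A, stood at 18.1 CPM in shHDAC6 and 20.2 in shControl, and at 24.8 CPM with ACY1215 and 18.8 with CAY10603, against 15.3 in vehicle. ACY1215 was the highest library and vehicle the lowest. Its log2 fold was 0.70 for ACY1215 (0.56 to 0.84), 0.30 for CAY10603 (0.15 to 0.44) and -0.16 for shHDAC6, and 0.30 for ACY1215 against shControl. RYK, another Wnt receptor, had 0.04, -0.09 and 0.17 in the same order.

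PDGFB and PDGFC, ligands of the platelet-derived growth factor receptors, had 0.40 and 0.11 with ACY1215, 0.22 and 0.07 with CAY10603, and 0.17 and -0.39 in shHDAC6. Across the 33 genes ACY1215 was the highest of the 5 libraries for 16, shControl for 8, shHDAC6 for 7, vehicle for 2 and CAY10603 for 0. Over all 10741 genes above the floor the shares were 27.5% for ACY1215, 18.5% for shControl, 25.8% for shHDAC6, 15.1% for vehicle and 13% for CAY10603. The same sign in all 3 interventions was seen for 7 of 33 genes, where 22.4% of all genes had it. For 15 genes shHDAC6 had one sign and both drugs the other (44.4% of all genes). For EGFR and HBEGF this held at 1.2-fold or more in each pair on scaled CPM (2.9% of all genes). On the authors' FPKM EGFR was under 1.2-fold in each pair. The drug comparisons share the vehicle library.

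Genes around the receptors were read from lists fixed with earlier results of these data known, again with no member called in the edgeR fit. Of 6 further receptors above the floor, 1 was at least 2-fold lower with ACY1215, FLT4, a receptor for VEGFC, at 3.82 CPM against 8.93 CPM in vehicle. Of 8 further ligands, 23 adaptors and 19 brakes or shedding enzymes above the floor, 0 were at least 2-fold from control in any of the 3 pairs. Their medians with ACY1215 were 0.25, -0.00 and 0.22. ADAM17 and ADAM10, the proteases that release EGF-like ligands, had 0.22 and 0.37. Of 10 ERK target genes above the floor, which include EPHA2, 8 were higher with ACY1215 (median 0.32) and 5 with CAY10603 (median 0.01). DUSP6, a phosphatase that ERK induces, was at -0.07 with ACY1215. In shHDAC6 4 of 10 were higher than in shControl (50.7% of all genes). The ERK target ETV4, a transcription factor, was at least 2-fold higher, at 44.1 CPM against 20.9 CPM in shControl. Of all genes, 0.689% were at least 2-fold apart in this pair. For ETV4 shControl was the lowest library, with 29.0 CPM in vehicle, 30.8 with ACY1215 and 25.5 with CAY10603.

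Since 5 genes stood at least 2-fold above vehicle in the ACY1215 library, their promoters are shown for comparison. RefSeq promoters of build GRCh38.p14, from 250 bases before to 50 after a transcription start, matched 40 of the 45 genes. Where a gene has several starts, as EPHB2 has, the first listed is given. Capitals mark GC boxes (GGGCGG), the AP-1 motif (TGANTCA) and a half-site of the cyclic AMP response element (TGACGT), each searched on both strands. The half-site was added after the sequences had been read.
EREG promoter, chr4:74364895-74365194, + strand: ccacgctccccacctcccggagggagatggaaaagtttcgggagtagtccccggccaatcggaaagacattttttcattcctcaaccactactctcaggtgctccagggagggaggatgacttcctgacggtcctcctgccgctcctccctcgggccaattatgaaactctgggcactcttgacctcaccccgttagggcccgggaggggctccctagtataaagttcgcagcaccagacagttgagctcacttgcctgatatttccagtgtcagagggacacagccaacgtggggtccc
AREG promoter, chr4:74444886-74445185, + strand: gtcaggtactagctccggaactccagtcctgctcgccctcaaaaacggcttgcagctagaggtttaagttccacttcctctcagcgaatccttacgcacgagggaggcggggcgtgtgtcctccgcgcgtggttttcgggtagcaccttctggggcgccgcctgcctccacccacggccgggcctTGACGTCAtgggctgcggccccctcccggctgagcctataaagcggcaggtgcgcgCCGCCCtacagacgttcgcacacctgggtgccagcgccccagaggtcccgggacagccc
HBEGF promoter, chr5:140346554-140346853, - strand: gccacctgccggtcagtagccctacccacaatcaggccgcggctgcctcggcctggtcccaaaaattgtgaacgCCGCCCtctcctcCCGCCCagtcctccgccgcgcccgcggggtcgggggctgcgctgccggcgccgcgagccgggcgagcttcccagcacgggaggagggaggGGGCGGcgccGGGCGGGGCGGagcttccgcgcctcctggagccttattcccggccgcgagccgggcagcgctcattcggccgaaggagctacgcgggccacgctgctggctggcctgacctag
EPHB2 promoter, chr1:22710588-22710887, + strand: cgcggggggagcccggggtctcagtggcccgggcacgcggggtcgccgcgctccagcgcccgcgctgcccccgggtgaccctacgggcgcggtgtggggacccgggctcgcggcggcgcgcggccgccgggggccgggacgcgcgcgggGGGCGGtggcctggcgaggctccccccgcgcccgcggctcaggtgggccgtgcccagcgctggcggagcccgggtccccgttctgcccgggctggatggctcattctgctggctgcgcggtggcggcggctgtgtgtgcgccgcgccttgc
IGF1R promoter, chr15:98648289-98648588, + strand: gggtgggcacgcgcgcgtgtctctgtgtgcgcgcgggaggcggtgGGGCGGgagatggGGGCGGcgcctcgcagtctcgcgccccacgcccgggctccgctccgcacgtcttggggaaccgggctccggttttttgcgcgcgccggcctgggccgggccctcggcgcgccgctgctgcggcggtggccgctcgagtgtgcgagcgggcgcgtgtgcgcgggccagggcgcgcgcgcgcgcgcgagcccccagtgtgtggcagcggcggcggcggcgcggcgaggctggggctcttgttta
None of the 3 motifs was in all 5 windows. HBEGF held 5 GC boxes, IGF1R 2, and AREG and EPHB2 1 each, while the EREG window held 0. GC boxes were found in 33 of the 40 matched genes (82.5%), in 45% of all 35116 RefSeq promoters and in 56.3% of those of protein-coding genes. AREG held the half-site on both strands, as overlapping matches of a single palindrome, TGACGTCA, which joins both half-sites. A half-site was in 2 of the 40 genes and in 7.98% of all promoters, and promoters with the whole palindrome were not counted. The AP-1 motif was in 0 of the 5, in 4 of the 40 and in 7.71% of all promoters. The base composition differed as well, with 57.7% G or C in the EREG window and 83% in that of EPHB2. On this assembly EREG and AREG are neighbours on chromosome 4, between the genes of the EGF-like ligands EPGN and BTC. EPGN stood at 0.460 CPM with ACY1215 against 0.561 in vehicle and BTC at 0.249 against 0.292. Both outer genes were under 1 CPM in each of the 5 libraries.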

How the data were processed

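Total RNA libraries of TOV21G cells were made with a stranded kit, per the labels' protocols. The deposited table holds estimated counts per gene (expected counts, here whole numbers), and per the file headers the authors also computed FPKM values. RSEM 1.2.3, edgeR and hg19 are named in the submitters' processing notes, without roles. The aligner is not given in the sources used here. DMSO columns were taken as the vehicle sample. Columns of unknown samples numbered 0, and 2 blank rows were left out.

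Counts were used as deposited. The fit over all 5 libraries used edgeR 4.0.16 in R 4.3.3 with TMM, robust quasi-likelihood tests, experiment type as covariate and a filter of 1 CPM in 2 or more libraries, leaving 2 residual degrees of freedom, with Benjamini-Hochberg adjustment over all genes tested. DESeq2 1.42.0 and limma 3.58.1 were alternatives. The fit was tested on simulated data. Single pairs have 1 library a side and carry no test. Total counts ranged from 43498805 to 57442767. Counting error is small for the highest genes, such as FGFR1 in shHDAC6 against shControl (log2 fold interval -0.07 to -0.02). Near 5 CPM it is wider, as for EPHB2 in the same pair (-0.46 to 0.01). The genes given with every library's value were those at least 2-fold apart in a pair, the 3 highest by FPKM and the largest fold of each role class. From the other lists, genes at least 2-fold apart in a pair were named, at most 4 a list, and any others were named after their values were seen. Members and lists were chosen with earlier results of these data known. Promoter coordinates are of GRCh38.p14, not of hg19, and were used for sequence alone.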

Additional observations from a re-analysis of the deposited data

Results flagged for a closer look

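EGFR and HBEGF had one sign in the hairpin pair and the other in both drug pairs, each read against its own control. Each was at least 1.2-fold lower in shHDAC6 than in shControl and at least 1.2-fold higher with both drugs than in vehicle, beyond counting error in each pair. EGFR had log2 folds of -0.28 for shHDAC6, 0.38 for ACY1215 and 0.34 for CAY10603. HBEGF had log2 folds of -0.55 for shHDAC6, 1.27 for ACY1215 and 0.54 for CAY10603. Among all genes above the floor 2.9% met the same folds. On the authors' FPKM the EGFR values were -0.07 for shHDAC6, 0.16 for ACY1215 and 0.19 for CAY10603. They kept their signs but were under 1.2-fold in each pair. The HBEGF values on FPKM were -0.54, 1.16 and 0.48 in the same order. Both genes were picked from these libraries for their opposite signs, so a test of that difference on them is no separate support. The difference of the hairpin and drug effects was tested by an interaction term in edgeR, with 1 residual degree of freedom. It was -1.51 for HBEGF (unadjusted p = 0.047, edgeR adjusted p = 0.97) and -0.65 for EGFR (unadjusted p = 0.074, edgeR adjusted p = 0.97), so neither passed. With vehicle in place of shControl the shHDAC6 values were 0.09 for EGFR and 0.56 for HBEGF, of the opposite sign. With shControl in place of vehicle the EGFR values were 0.00 for ACY1215 and -0.03 for CAY10603. Those of HBEGF were 0.16 for ACY1215 and -0.57 for CAY10603. The opposite signs thus depended on which control each library was set against. Vehicle had the lowest level of both genes among the 5 libraries.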

How the results depend on the processing

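The count of genes called for repressed HDAC6 against control was 0 with DESeq2 size factors, with no low-count filter, without the covariate, with DESeq2 and with limma-voom. Leaving out 1 library at a time gave 0 to 4 calls, with 3 without vehicle and 4 without ACY1215, and 0 of the calls were receptor, ephrin or growth factor genes. Without vehicle only the hairpin pair informs the contrast, and the positive estimates of 8 of 14 genes (EPHB2, EREG, HBEGF, IGF1R, EGFR, ROR1, FGFR1 and EFNB2) became negative. With the other control library the medians of the 33 genes moved to 0.17 for shHDAC6, 0.12 for ACY1215 and -0.15 for CAY10603, and the count of genes at least 2-fold from control with ACY1215 to 3. With the authors' FPKM the ACY1215 median was 0.16, where the median of all genes shifted by -0.10. At 1.5-fold the count with ACY1215 was 9. For single genes, 42 of 42 values stayed within their counting intervals with another size factor and 42 of 42 with a prior count of 5, 27 with FPKM and 5 with the other control. The 5 genes at least 2-fold higher with ACY1215 kept that sign against shControl. A floor of 1 CPM left the counts and medians as they were. No paired analysis was possible because the labels give no replicate numbers. Experiment type, which ties shHDAC6 to shControl and the drugs to vehicle, was already a covariate of the fit. Depth limits the 12 genes under the floor, several with fewer than 30 counts in each library.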

Other observations

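Further genes around the receptors are given as values, chosen after they were seen. KITLG, the ligand of the receptor KIT, stood at 254 CPM in shHDAC6 and 380 in shControl, and at 537 CPM with ACY1215 and 368 with CAY10603, against 302 in vehicle, while KIT itself was at or under 0.0897 CPM in every library. SHC1, an adaptor that links receptors to RAS, stood at 197 CPM with ACY1215 and 109 with CAY10603, against 110 in vehicle, and at 134 in shHDAC6 against 146 in shControl. GRB7, an adaptor of ERBB2, stood at 17.5 CPM in shHDAC6 against 10.6 in shControl, and at 8.71 with ACY1215 and 11.1 with CAY10603, against 15.5 in vehicle. It thus had the same signs as ERBB2 in the 3 pairs. MYC stood at 190 CPM with ACY1215 and 129 with CAY10603, against 115 in vehicle, and at 112 in shHDAC6 against 121 in shControl.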
